A study of Arabidopsis thaliana with 18 samples.

Results

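The 10 genes described here code for enzymes and regulators of tetrapyrrole synthesis, the plastid pathway that makes chlorophyll and heme, and for components of GUN (genomes uncoupled) signalling from the plastid to the nucleus. They are HEMA1, GUN5, GUN4, CHLM, CRD1, PORB, PORC, TED4, GLK2 and GPRI1, and they were named from a table of 25177 genes by their roles, with no threshold on a measured value. RNA was sequenced from seedling root tips of Arabidopsis thaliana in 18 libraries of 6 genotypes with 3 libraries each. Col-0 (WT) was compared with the single mutants rab8d-2, gun1-101 and nac103-11 and with rab8d-2 combined with gun1-101 (gun1-101 rab8d-2) or with nac103-11 (nac103-11 rab8d-2). The design text describes rab8d-2 as a mutant with a functional deficiency of plastid EF-Tu, an elongation factor of plastid translation, and it names the roles of GUN1 and NAC103 in that mutant's root as the question. All plants grew on 1/2 MS medium with 1% sucrose in long days; their age is 4 days in the titles and 3 days in the design text. Each mutant is represented by 1 allele, and the labels call the libraries biological replicates without saying whether they came from separate cultures, so p-values measure the spread between these libraries, which may be partly technical.

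Tetrapyrrole synthesis starts from glutamate, which is turned into 5-aminolevulinate and then into protoporphyrin, where the pathway divides. Insertion of magnesium leads through several steps to chlorophyll, and insertion of iron leads to heme and, through heme oxygenase, to the bilin chromophore of phytochrome. GUN mutants were found because they keep nuclear photosynthesis genes active when plastid development is blocked; GUN2, GUN4 and GUN5 are tetrapyrrole genes, and GLK transcription factors are activators of nuclear genes for chlorophyll synthesis and light harvesting. Roots grown in light hold few developed chloroplasts, so these genes are usually weaker there than in leaves.

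Totals were 22625991 to 23090977 counts per library, and all 10 genes were among the 21004 with enough counts to be tested. As a check of the labels, RAB8D RNA was lower in each of the 9 libraries with rab8d-2 (5.88 to 18.9 CPM) than in each of the 9 without it (86.1 to 176 CPM), where CPM is the count scaled to library size with TMM factors. GUN1 RNA was 68.4 to 91.7 CPM in gun1-101 against 133 to 166 CPM in WT and 47.7 to 58.0 CPM in gun1-101 rab8d-2 against 91.6 to 120.2 CPM in rab8d-2. NAC103 RNA was 0.0841 to 0.185 CPM in nac103-11 against 0.539 to 1.99 CPM in WT and 3.25 to 8.35 CPM in nac103-11 rab8d-2 against 11.4 to 29.7 CPM in rab8d-2. The root tip markers PLT1, PLT2 and WOX5 were detected in every library, and FIL, YAB3, STM, SPCH and FAMA, which act in shoots, summed to at most 0.37 TPM in 13 libraries. They summed to more than 1 TPM in the other 5: WT replicate 2 (1.36), WT replicate 3 (7.11), nac103-11 replicate 3 (2.36), rab8d-2 replicate 1 (10.5) and gun1-101 rab8d-2 replicate 3 (1.18). A score of clock genes, the mean log2(TPM + 1) of 3 morning genes minus that of 4 evening genes, lay between -5.66 and -4.70 in 12 libraries but was 1.56 in WT replicate 3, 0.35 to 0.63 in the 3 gun1-101 libraries, 1.16 in rab8d-2 replicate 3 and -1.82 in gun1-101 rab8d-2 replicate 3. All 6 nac103-11 and nac103-11 rab8d-2 libraries had scores between -5.31 and -4.96. The libraries least like their mates, by mean correlation across genes, were WT replicate 3 (0.923) and nac103-11 rab8d-2 replicate 3 (0.903). The latter had the lowest TMM factor (0.706, against 1.11 in each of its mates), which raises its CPM values. Its TED4 level was the highest of its genotype in CPM (43.4) and the lowest in TPM (25.4). Replicates 1 and 2 of gun1-101 rab8d-2 were closer to each other than any other pair (chi-square per degree of freedom of 2.11, against 11.7 to 173 elsewhere) but differed by more than sampling noise, and they were kept as 2 libraries.

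**Figure D1:**
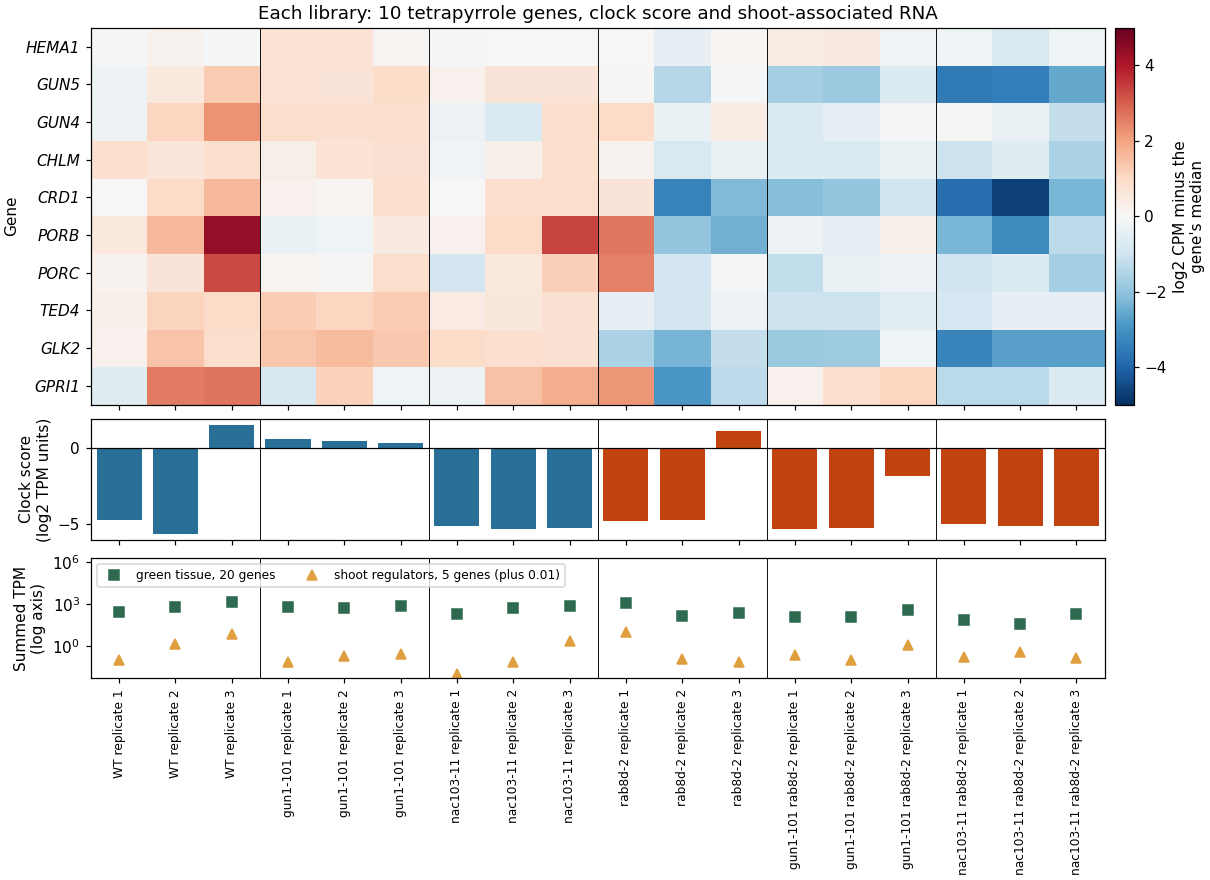
Each column is 1 of the 18 libraries. The top panel shows log2 CPM of each gene minus its median over libraries, the middle panel the clock score, and the bottom panel the summed TPM of 20 green tissue genes and 5 shoot regulators on a log axis; GLK2 and GUN5 are lowest in the 3 nac103-11 rab8d-2 libraries, and PORB stands out in the 3 libraries with the most shoot regulator RNA.

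Levels differed widely between the 10 genes. On the TPM scale, which corrects for transcript length, the WT mean was highest for TED4 at 75.5 ± 21.1 TPM (SD, n = 3). CRD1 (31.2 ± 18.9), CHLM (25.3 ± 4.26), HEMA1 (23.1 ± 1.97) and PORB (22.0 ± 29.7 TPM) followed, and these 4 means did not differ beyond their spread. GLK2 (9.06 ± 3.15) and GUN5 (6.88 ± 4.21 TPM) came next and overlapped. PORB overlapped both, with 3.34, 6.48 and 56.2 TPM in WT replicates 1, 2 and 3. PORC (2.79 ± 3.41), GUN4 (1.33 ± 1.17) and GPRI1 (0.723 ± 0.554 TPM) were lowest and also overlapped with each other. Low counts limit these last 3: their means over all libraries were 41.2, 22.6 and 13.4 counts. By the ratio of highest to lowest TPM over the 18 libraries, HEMA1 varied least (2.64, from 15.6 to 41.1 TPM) and PORB most (176, from 0.32 to 56.2 TPM).

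Where rab8d-2 was present, RNA of the magnesium branch, of the heme oxygenase gene TED4 and of GLK2 was lower. Averaged over the WT, gun1-101 and nac103-11 backgrounds, 7 of the 10 genes fell with rab8d-2 and none rose, by edgeR's quasi-likelihood test with Benjamini-Hochberg adjustment over all 21004 genes. GLK2 fell most, by 2.93 ± 0.25 on the log2 scale (SE, adjusted p = 1.01e-06), followed by CRD1 (-2.53 ± 0.48), GUN5 (-2.24 ± 0.26) and PORB (-2.12 ± 0.71). TED4 fell by 1.51 ± 0.14, CHLM by 1.18 ± 0.17 and GUN4 by 0.88 ± 0.33. HEMA1 (-0.25 ± 0.12, adjusted p = 0.0981), PORC (-1.11 ± 0.52, adjusted p = 0.0838) and GPRI1 (-1.07 ± 0.59, adjusted p = 0.138) did not pass. In the same comparison 51.6% of all genes were called, 24.5% lower and 27.1% higher; the median log2 fold change was -1.35 over the 10 genes and 0.07 over all genes tested. TED4 and GLK2 were the 2 genes whose 9 libraries with rab8d-2 all lay below the 9 without it, a pattern that 4.50% of all genes tested showed. The average includes the gun1-101 background, where clock scores were 0.35 to 0.63 in gun1-101 and -5.28 to -1.82 in gun1-101 rab8d-2. No average matched for clock score was run. A fit without the 5 libraries with over 1 TPM of shoot regulators was added after the data were seen and keeps 1 WT library. The value for GUN4 there was -0.32, against -0.88 with all libraries. Leaving out 1 library gave between 5 and 9 called genes. It reached 9 when rab8d-2 replicate 1 was left out, where PORC (-1.69, adjusted p = 0.00734) and GPRI1 (-1.94, adjusted p = 0.00594) also passed. That fit called 5661 of all 21174 genes tested higher and 5310 lower. The call of PORB was lost without nac103-11 replicate 3 (-1.59, adjusted p = 0.0682), where 5230 of 21231 were called higher and 4585 lower. It was also lost without WT replicate 3 (-1.48, adjusted p = 0.0667), where 6383 of 21207 were called higher and 5292 lower. Without this WT library and replicate 3 of nac103-11 rab8d-2, the pair least like their mates, the count was 5, with GUN4 (-0.53, adjusted p = 0.127) and PORB (-1.66, adjusted p = 0.0547) not passing. In that fit 64.9% of all genes were called, 7197 higher and 6547 lower of 21183.

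**Figure D2:**
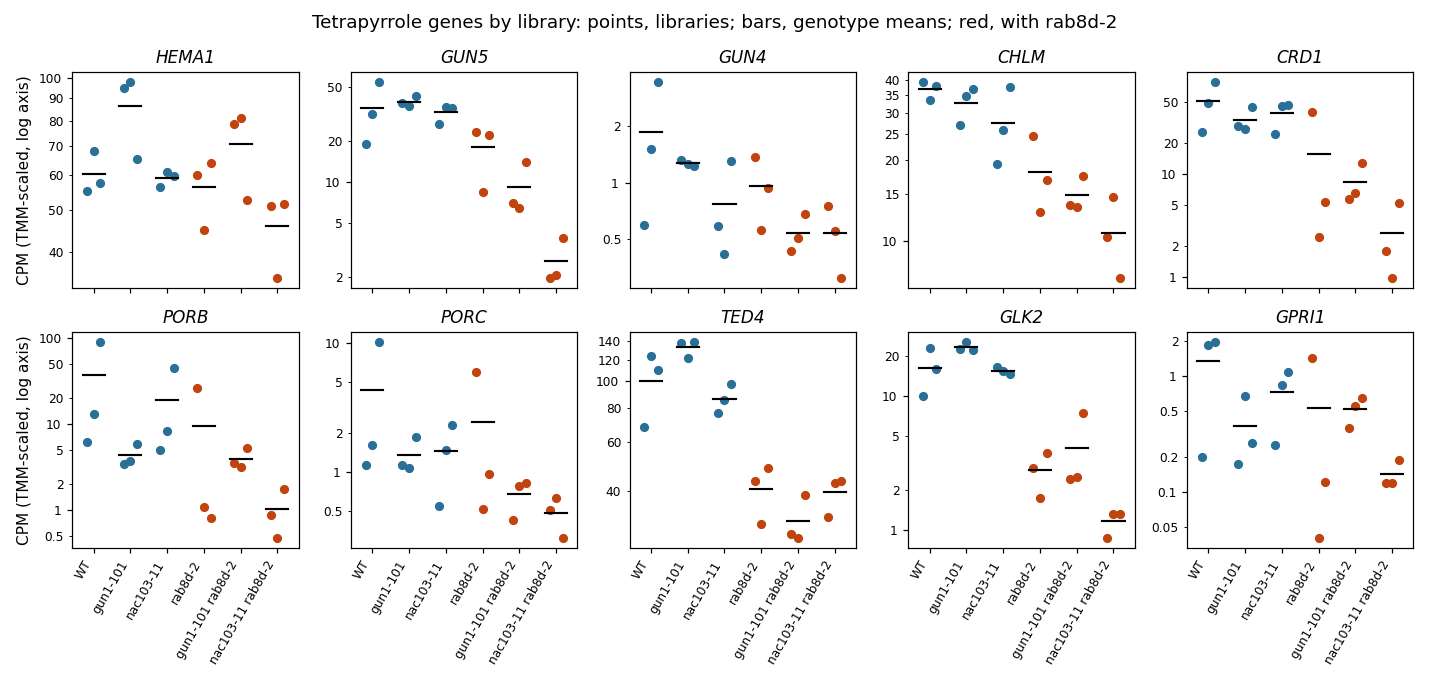
CPM (TMM-scaled, log axis) of each of the 10 genes in every library, by genotype, with bars at the mean of 3 libraries and red points for genotypes with rab8d-2. The red and blue points do not overlap for TED4 and GLK2, overlap little for GUN5, CHLM and CRD1, and overlap widely for HEMA1.

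The sequences upstream of 5 genes are shown because these had the largest falls. They were read from the RefSeq TAIR10.1 genome, end just before the annotated gene start, run for 250 bases or to the edge of the neighbouring gene, and are given 5′ to 3′ on the gene's strand. Capitals mark matches, on either strand, to CCAATC (a core described for GLK binding), CACGTG (the G-box), AAAATATCT (the evening element) and GATAAG (the I-box).
GLK2, chr5:17798012-17798261, plus strand: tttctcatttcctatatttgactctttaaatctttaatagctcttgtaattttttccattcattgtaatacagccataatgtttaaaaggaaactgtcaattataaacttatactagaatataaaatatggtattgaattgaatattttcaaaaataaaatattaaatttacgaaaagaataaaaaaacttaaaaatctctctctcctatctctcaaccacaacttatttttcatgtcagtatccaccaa
TED4, chr2:11341298-11341547, plus strand: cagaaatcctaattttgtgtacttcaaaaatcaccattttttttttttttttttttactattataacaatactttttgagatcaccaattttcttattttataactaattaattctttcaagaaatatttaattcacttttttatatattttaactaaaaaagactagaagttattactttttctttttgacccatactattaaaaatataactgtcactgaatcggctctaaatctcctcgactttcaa
GUN5, chr5:4392430-4392679, minus strand: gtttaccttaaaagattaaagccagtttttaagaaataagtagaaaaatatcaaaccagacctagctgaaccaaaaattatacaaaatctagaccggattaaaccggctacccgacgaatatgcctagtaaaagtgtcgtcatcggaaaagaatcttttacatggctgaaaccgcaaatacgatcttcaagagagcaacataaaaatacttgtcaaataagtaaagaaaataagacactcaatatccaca
CRD1, chr3:21076316-21076504, plus strand: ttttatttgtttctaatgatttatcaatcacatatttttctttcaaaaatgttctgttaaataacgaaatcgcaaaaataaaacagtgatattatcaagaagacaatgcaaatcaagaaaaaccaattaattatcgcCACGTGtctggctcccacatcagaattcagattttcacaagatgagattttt
PORB, chr4:13725360-13725545, plus strand: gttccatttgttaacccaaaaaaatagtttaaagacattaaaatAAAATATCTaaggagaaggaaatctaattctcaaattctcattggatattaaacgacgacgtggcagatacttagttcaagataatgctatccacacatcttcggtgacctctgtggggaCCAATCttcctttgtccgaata
No match to these letters lies in the windows of GLK2, TED4 and GUN5. CRD1 has CACGTG 47 to 52 bases before its start, a motif in 6.49% of 27443 promoters of 250 bases. PORB has CCAATC 17 to 22 bases and AAAATATCT 134 to 142 bases before its start, motifs found in 10.2% and 2.36% of those promoters. Over the full 250-base windows of all 10 genes, 5 of which overlap another gene, CCAATC occurred in 2 (GUN4 and PORB), and CACGTG, AAAATATCT and GATAAG in 1 each. The window of GUN4 overlaps AT3G59410, and PORB has a second CCAATC at 214 to 219 bases, in the stretch not printed. The windows describe letters only and were not tested against expression.

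HEMA1 (AT1G58290, chromosome 1, 21623700 to 21626402 in the RefSeq TAIR10.1 annotation, as for the genes below) codes for glutamyl-tRNA reductase, which makes the first committed intermediate of 5-aminolevulinate. Its levels were 55.3, 68.3 and 57.7 CPM in WT and 60.1, 44.9 and 63.9 CPM in rab8d-2. They were 56.3, 61.1 and 59.7 CPM in nac103-11, and 51.0, 35.0 and 51.6 CPM in nac103-11 rab8d-2. The gun1-101 libraries held 95.0, 98.2 and 65.5 CPM and the gun1-101 rab8d-2 libraries 78.5, 81.3 and 52.6 CPM. The highest 4 values all came from replicates 1 and 2 of the 2 genotypes with gun1-101, and replicate 3 of each lay among the other genotypes. HEMA1 passed in none of the 10 comparisons, although in the average over backgrounds it passed without gun1-101 replicate 3 (-0.31, adjusted p = 0.0467). The values were -0.10 ± 0.21 for rab8d-2 against WT and 0.51 ± 0.21 for gun1-101 against WT (unadjusted p = 0.0288, adjusted p = 0.690).

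GUN5 (AT5G13630, chromosome 5, 4387307 to 4392429) codes for CHLH, the large subunit of magnesium chelatase that binds protoporphyrin. WT held 19.2, 31.7 and 55.1 CPM, gun1-101 held 38.3, 36.2 and 43.3 CPM, and nac103-11 held 26.9, 36.1 and 35.4 CPM. The rab8d-2 libraries held 23.6, 8.52 and 22.3 CPM, gun1-101 rab8d-2 held 6.98, 6.42 and 14.1 CPM, and nac103-11 rab8d-2 held 1.98, 2.06 and 3.88 CPM. The 3 nac103-11 rab8d-2 libraries were the lowest of all 18, and rab8d-2 overlapped WT. GUN5 fell by 2.096 ± 0.44 in gun1-101 rab8d-2 against gun1-101 (adjusted p = 0.00319) and by 3.65 ± 0.48 in nac103-11 rab8d-2 against nac103-11 (adjusted p = 0.000204). In rab8d-2 against WT the value was -0.96 ± 0.43 and did not pass (adjusted p = 0.142).

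GUN4 (AT3G59400, chromosome 3, 21948501 to 21949796) codes for an activator that binds the substrate and product of magnesium chelatase. Its levels were low, from 0.313 CPM in nac103-11 rab8d-2 replicate 3 to 3.43 CPM in WT replicate 3. The gun1-101 libraries (1.31, 1.25 and 1.23 CPM) all lay above the gun1-101 rab8d-2 libraries (0.431, 0.509 and 0.679 CPM), yet the difference of -1.22 ± 0.57 did not pass (adjusted p = 0.123), and 31.0% of all genes tested showed such a separation downward in that comparison. It passed there with only the 6 libraries fitted (-1.24, adjusted p = 0.00792), without the pair least like their mates (-1.25, adjusted p = 0.0460) and without the libraries with shoot regulator RNA (-1.42, adjusted p = 0.0473). In the fit of all libraries GUN4 passed only in the average over backgrounds (adjusted p = 0.0360), and 11 of the 18 leave-one-library fits lost that call. These were the fits without WT replicate 3, any 1 gun1-101 library, nac103-11 replicate 3, rab8d-2 replicate 2 or 3, gun1-101 rab8d-2 replicate 1 or 2, or nac103-11 rab8d-2 replicate 2 or 3, with adjusted p from 0.0521 to 0.107.

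CHLM (AT4G25080, chromosome 4, 12876822 to 12878703) codes for the methyltransferase that acts on magnesium protoporphyrin. Its levels were 39.4, 33.7 and 37.8 CPM in WT and 24.6, 12.8 and 16.9 CPM in rab8d-2. In gun1-101 they were 27.1, 34.7 and 36.9 CPM against 13.6, 13.4 and 17.5 CPM in gun1-101 rab8d-2, a separation downward that 31.0% of all genes tested showed in that comparison. In nac103-11 they were 19.4, 25.9 and 37.8 CPM against 10.3, 14.6 and 7.25 CPM in nac103-11 rab8d-2. CHLM fell with rab8d-2 in each background, by 1.03 ± 0.29 in WT (adjusted p = 0.0339), 1.15 ± 0.29 in gun1-101 (adjusted p = 0.00933) and 1.37 ± 0.29 in nac103-11 (adjusted p = 0.00364). The call against WT was lost without WT replicate 1 (-0.98, adjusted p = 0.0756), WT replicate 2 (-1.08, adjusted p = 0.0756), rab8d-2 replicate 2 (-0.83, adjusted p = 0.175) or rab8d-2 replicate 3 (-0.98, adjusted p = 0.0735).

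CRD1 (AT3G56940, chromosome 3, 21076505 to 21078443) codes for CHL27, a subunit of the cyclase that closes the fifth ring of chlorophyll. WT held 25.6, 48.8 and 77.8 CPM, while rab8d-2 held 39.3, 2.45 and 5.35 CPM. The first rab8d-2 library lay among the WT values and is the library with the most shoot regulator RNA. In nac103-11 the levels were 24.4, 45.2 and 46.3 CPM, and in nac103-11 rab8d-2 they were 1.82, 0.992 and 5.19 CPM. CRD1 fell by 3.89 ± 0.89 in the latter pair (adjusted p = 0.00549). It did not pass in rab8d-2 against WT (-1.69 ± 0.80, adjusted p = 0.167), where it was called without rab8d-2 replicate 1 (-3.70, adjusted p = 0.0106). The gun1-101 values (28.8, 27.0 and 43.9 CPM) did not overlap those of gun1-101 rab8d-2 (5.69, 6.61 and 12.7 CPM), and the difference of -1.996 ± 0.81 did not pass (adjusted p = 0.0769). Such a separation downward was shown by 31.0% of all genes tested in that comparison.

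PORB (AT4G27440, chromosome 4, 13725546 to 13727440) and PORC (AT1G03630, chromosome 1, 907523 to 909650) code for light-dependent protochlorophyllide oxidoreductases; they and PORA are paralogs, and reads shared between them were divided by the authors' counting, so single values are uncertain. PORB held 6.22, 13.1 and 91.1 CPM in WT, 4.96, 8.30 and 44.6 CPM in nac103-11 and 26.4, 1.09 and 0.810 CPM in rab8d-2. The highest value of each of these genotypes came from a library with over 1 TPM of shoot regulators: WT replicate 3, nac103-11 replicate 3 and rab8d-2 replicate 1. The nac103-11 rab8d-2 libraries held 0.870, 0.476 and 1.75 CPM, and PORB fell there against nac103-11 by 4.27 ± 1.37 (adjusted p = 0.0301). That call was lost without nac103-11 replicate 3 (-2.71, adjusted p = 0.158), nac103-11 rab8d-2 replicate 1 (-4.17, adjusted p = 0.0855) or replicate 2 (-3.91, adjusted p = 0.0923). In gun1-101 rab8d-2 against gun1-101 the value for PORB was -0.13 ± 1.19. PORC ranged from 0.313 to 10.2 CPM, was highest in WT replicate 3 and rab8d-2 replicate 1 (5.89 CPM), and passed in no comparison.

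TED4 (AT2G26670, chromosome 2, 11341548 to 11343693) is heme oxygenase 1, also known as HY1 and GUN2, which opens the heme ring to make biliverdin for phytochrome. It held 68.2, 123 and 110.3 CPM in WT, 138, 122 and 139 CPM in gun1-101, and 76.9, 85.3 and 97.6 CPM in nac103-11. With rab8d-2 it held 43.6, 30.2 and 48.5 CPM in the single mutant, 27.9, 27.0 and 38.6 CPM with gun1-101, and 32.0, 42.9 and 43.4 CPM with nac103-11. The highest value with rab8d-2 was thus below the lowest value without it. TED4 fell by 1.31 ± 0.23 against WT (adjusted p = 0.00505), by 2.09 ± 0.24 in the gun1-101 background (adjusted p = 6.85e-05) and by 1.13 ± 0.23 in the nac103-11 background (adjusted p = 0.00288). These calls held without any 1 library; with only the 6 libraries of the contrast fitted, the call against WT was lost (-1.28, adjusted p = 0.0936), and it was also lost in the 12 libraries with clock scores below -4 (-1.37, adjusted p = 0.0575) and without the 5 libraries with shoot regulator RNA (-0.79, adjusted p = 0.198), a fit that keeps 1 WT library, replicate 1, whose TED4 level is the lowest in WT, and takes its spread from the other groups.

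GLK2 (AT5G44190, chromosome 5, 17798262 to 17800926) and GPRI1 (AT2G20570, chromosome 2, 8855302 to 8857758), which is GLK1, are paired activators of chloroplast development. GLK2 held 10.1, 23.1 and 16.0 CPM in WT, 22.7, 25.7 and 22.2 CPM in gun1-101 and 16.6, 15.4 and 14.6 CPM in nac103-11. It held 2.90, 1.73 and 3.77 CPM in rab8d-2, 2.39, 2.50 and 7.50 CPM in gun1-101 rab8d-2, and 0.870, 1.31 and 1.31 CPM in nac103-11 rab8d-2. All 9 libraries with rab8d-2 were below all 9 without it, and the closest pair was gun1-101 rab8d-2 replicate 3 and WT replicate 1. GLK2 fell with rab8d-2 in each background, with log2 fold changes of -2.55 ± 0.43 against WT (adjusted p = 0.00359), -2.505 ± 0.42 in gun1-101 (adjusted p = 0.000763) and -3.74 ± 0.46 in nac103-11 (adjusted p = 0.000134). These 3 calls also held without any 1 library, and the call against WT was lost with only its 6 libraries fitted (-2.52, adjusted p = 0.0639) or without the 5 libraries with shoot regulator RNA (-1.87, adjusted p = 0.0796), which keeps 1 WT library with its spread assumed from the other groups. GPRI1 ranged from 0.0402 to 1.96 CPM, with 1.83 and 1.96 CPM in WT replicates 2 and 3 and 1.41 CPM in rab8d-2 replicate 1, and passed in no comparison. Its value in rab8d-2 against WT was -1.34 ± 0.94, and it was called there without rab8d-2 replicate 1 (-3.95, adjusted p = 0.0264).

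By background, 3 of the 10 genes fell in rab8d-2 against WT (CHLM, TED4 and GLK2), where 7.50% of all genes were called lower. In all, 4 fell in the gun1-101 background (GUN5, CHLM, TED4 and GLK2), where 15.7% were called lower, and 6 in the nac103-11 background (GUN5, CHLM, CRD1, PORB, TED4 and GLK2), where 14.3% were called lower. No gene of the 10 rose in any of the 3, where 4.80%, 12.7% and 14.7% of all genes were called higher; called in either direction were 12.3%, 28.3% and 29.0%. Against WT, leaving out rab8d-2 replicate 1 gave 6, and the count was 2 without any 1 of 4 other libraries (those that lost CHLM). Of all genes, the first fit called 1073 higher and 1639 lower. The other 4 called 191 to 986 higher and 256 to 1428 lower. The count was 1 in the 12 libraries with clock scores below -4, where 0.979% of all genes were called. It was 0 when only the 6 WT and rab8d-2 libraries were fitted, where 0.377% of all genes were called. Leaving out the 5 libraries with shoot regulator RNA keeps 1 WT library, so no count is given for that fit. In the gun1-101 background the clock scores differed between the genotypes (0.35 to 0.63 against -5.28 to -1.82), so rab8d-2 and the difference in clock score cannot be told apart there. The count there was 7 when only the 6 libraries were fitted, where 53.9% of all genes were called. It was 6 without the pair least like their mates (44.9% of all genes) and 6 without the libraries with shoot regulator RNA (20.3%). In the nac103-11 background the clock scores matched, and the count stayed at 6 without the libraries with shoot regulator RNA (18.3% of all genes). With limma on log2(TPM + 1), which changes both the scale and the test, the median log2 fold change over all genes tested was higher by 0.21 against WT, by 0.16 in the gun1-101 background and by 0.10 over all backgrounds, and moved by -0.07 in the nac103-11 background. The calls over all genes went from 1009 higher and 1576 lower to 1593 higher and 1143 lower against WT, from 2658 and 3288 to 3553 and 2582 in gun1-101, from 3089 and 2997 to 2599 and 3067 in nac103-11, and from 5683 and 5151 to 7282 and 4168 over all backgrounds. In that fit 2, 3 and 5 of the 10 genes fell in the 3 backgrounds and none rose.

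**Figure D3:**
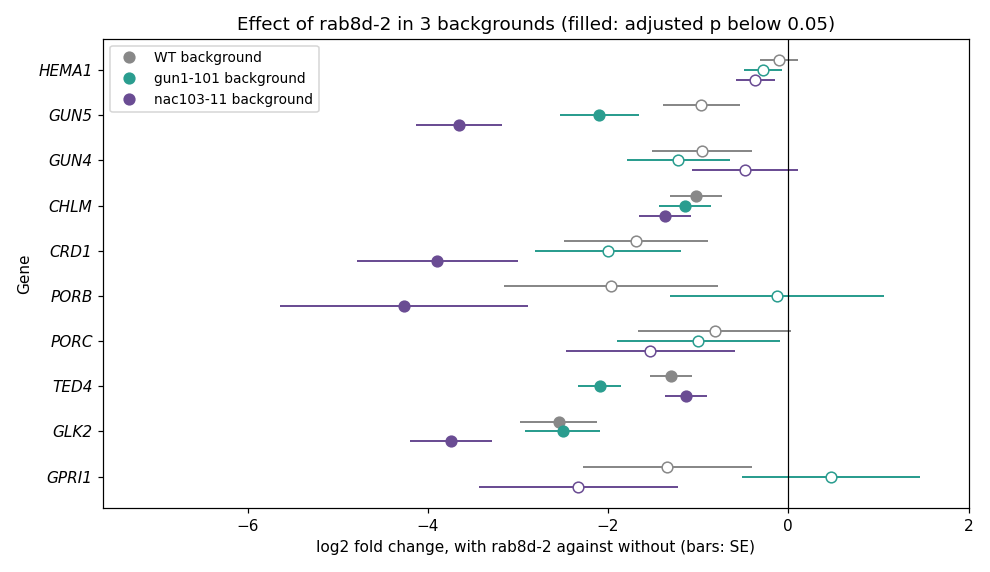
Log2 fold change with its SE for rab8d-2 against its absence in 3 backgrounds, 3 libraries against 3 in each; filled points have an adjusted p below 0.05. TED4, CHLM and GLK2 are filled in each background, GUN5 in the 2 mutant backgrounds, and CRD1 and PORB in the nac103-11 background alone.

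Set against rab8d-2, the double mutants showed 1 call among these genes. In nac103-11 rab8d-2 against rab8d-2, 1 of the 10 passed, against 2.54% of all genes: GUN5 fell by 2.80 ± 0.47 (adjusted p = 0.0124). All 10 values were below 0 in this comparison, from -0.05 for TED4 to -3.24 for PORB, and the median was -1.58. Without rab8d-2 replicate 1, the library with the most shoot regulator RNA, 7 were below 0 and the median was -0.46: CRD1 went from -2.59 to -0.59, PORB to 0.07 and GPRI1 from -1.88 to 0.73, while GUN5 still passed (-2.56, adjusted p = 0.0450). The GUN5 call was lost without rab8d-2 replicate 3 (-2.62, adjusted p = 0.0516), without the libraries with shoot regulator RNA (-2.56, adjusted p = 0.0576), in the 12 libraries with clock scores below -4 (-2.61, adjusted p = 0.0887) and when only the 6 libraries were fitted (-2.78, adjusted p = 0.373). CRD1 passed without rab8d-2 replicate 2 (-3.10, adjusted p = 0.0433), and with DESeq2 CRD1 (-2.57, adjusted p = 0.0172) and GLK2 (-1.27, adjusted p = 0.0494) passed as well. In gun1-101 rab8d-2 against rab8d-2, where 4.18% of all genes were called, edgeR and DESeq2 called 0 of the 10, and 1 (GUN5, -0.98 ± 0.43) had an unadjusted p below 0.05. So did 4350 of all 21004 genes tested.

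The single mutants gun1-101 and nac103-11 gave no call among these genes. In gun1-101 against WT, where 0.0190% of all genes were called, edgeR and DESeq2 called 0 of the 10 genes, and 2 (HEMA1 and PORB) had an unadjusted p below 0.05. So did 1489 of all 21004 genes tested. PORB held 3.45, 3.72 and 5.88 CPM in gun1-101, and its value against WT was -3.08 ± 1.25 (adjusted p = 0.684). Without WT replicate 3 that value was -1.15 (adjusted p = 0.540). Clock scores were 0.35 to 0.63 in gun1-101 and -4.70, -5.66 and 1.56 in WT, so this comparison is not matched for them. Without the pair of libraries least like their mates, 18.6% of all genes and 0 of the 10 were called. In nac103-11 against WT, where 0.00952% were called, both tools also called 0, and 1 (GUN4, -1.27 ± 0.56) had an unadjusted p below 0.05, as did 1363 of all genes tested.

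Whether the rab8d-2 effect itself differed between backgrounds was tested with an interaction term. For gun1-101, where 0.195% of all genes were called, edgeR and DESeq2 called 0 of the 10, and TED4 had the smallest p (-0.79 ± 0.33, unadjusted p = 0.0288, adjusted p = 0.404). For nac103-11, where 0.00952% were called, edgeR called 0, and 1 gene, GUN5, had an unadjusted p below 0.05 (-2.69 ± 0.62, unadjusted p = 0.000586, adjusted p = 0.150). Of all 21004 genes tested, 3340 had an unadjusted p below 0.05. DESeq2's Wald test called this GUN5 interaction (-2.72, adjusted p = 0.00449) and no other of the 10. The larger numbers called in the double mutant backgrounds are therefore not shown to be a difference between backgrounds.

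The rest of the pathway gives the setting of these values. Averaged over backgrounds, of 46 other genes of tetrapyrrole metabolism and its regulation that could be tested out of 49 listed, 5 rose and 18 fell, against 27.1% of all genes called higher and 24.5% called lower. The median was -0.23 over the 46 genes and 0.07 over all genes. All 8 genes of the magnesium branch fell, with log2 fold changes from -0.55 to -2.53 and a median of -1.07; besides GUN5, GUN4, CHLM and CRD1 these are CHLD, CHLI1, CHLI2 and LCAA, named here after their values were seen. That count was 5 without WT replicate 3, where 5292 of 21207 genes were called lower. It was 5 without nac103-11 replicate 3 (4585 of 21231) and 4 with limma on TPM (4168 of 21004). The fit without the libraries with shoot regulator RNA keeps 1 WT library, so its count for this branch is not given. Of 7 genes of the chlorophyll end steps 4 fell, among them CHLG, chlorophyll synthase (-1.74 ± 0.19, adjusted p = 5.85e-06), and CHLP, geranylgeranyl reductase (-2.13 ± 0.38, adjusted p = 0.000357). The median of these 7 was -1.74, and without WT replicate 3 it was -0.78 with 2 called; 3 were called without nac103-11 replicate 3. Of 5 genes of 5-aminolevulinate synthesis 1 rose and none fell, with a median of -0.23. The gene that rose is HEMA2, named after its value was seen, and none rose without the libraries with shoot regulator RNA. With gun1-101 replicate 3, rab8d-2 replicate 1 or nac103-11 rab8d-2 replicate 3 left out, 1 gene also fell. Of 5 genes of the heme and bilin branch 1 fell, TED4, and 1 rose, HY2, named after its value was seen (0.68 ± 0.25, adjusted p = 0.0347). No gene of this branch rose with the replicate block or in 11 of the 18 leave-one-library fits. Those left out WT replicate 1, gun1-101 replicate 1 or 3, nac103-11 replicate 2 or 3, rab8d-2 replicate 2 or 3, gun1-101 rab8d-2 replicate 2 or 3, or nac103-11 rab8d-2 replicate 1 or 2. Without nac103-11 rab8d-2 replicate 3, 2 rose.

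Between these groups, the 10 porphyrin genes from porphobilinogen to protoporphyrin were mixed: 2 rose and 4 fell, and without nac103-11 rab8d-2 replicate 3 the counts were 3 and 7. HEMB2, a porphobilinogen synthase gene with low counts (1 to 87 per library), fell by 2.25 ± 0.42 (adjusted p = 0.000546). HEMC, porphobilinogen deaminase, fell by 0.47 ± 0.10 (adjusted p = 0.00114) and by 0.68 ± 0.17 in the nac103-11 background (adjusted p = 0.00822). HEMD, uroporphyrinogen III synthase, rose in gun1-101 rab8d-2 both against gun1-101 (1.04 ± 0.26, adjusted p = 0.00908) and against rab8d-2 (1.24 ± 0.26, adjusted p = 0.0185), the latter lost without rab8d-2 replicate 1, gun1-101 rab8d-2 replicate 1 or replicate 2 (adjusted p up to 0.0706). HEMB2 fell in the gun1-101 background by 3.24 ± 0.77 (adjusted p = 0.00638), from 87, 53 and 81 counts to 8, 17 and 1, so low counts limit this value. HEMB1, the other HEMB gene listed, held 56.8, 49.8 and 55.8 CPM in gun1-101 and 58.2, 56.2 and 51.9 CPM in gun1-101 rab8d-2, with overlap. GUN1, the pentatricopeptide repeat protein that integrates plastid signals, fell by 0.60 ± 0.10 over the backgrounds (adjusted p = 0.000173), by 0.80 ± 0.17 in the nac103-11 background (adjusted p = 0.00351) and by 0.56 ± 0.17 in the gun1-101 background (adjusted p = 0.0241), where the call was lost without any of gun1-101 replicates 2 and 3 and gun1-101 rab8d-2 replicates 2 and 3 (adjusted p up to 0.110). It was also lower in gun1-101 rab8d-2, which carries the gun1-101 allele, than in rab8d-2 (-0.995 ± 0.17, adjusted p = 0.00621). CHLG fell in each background, by 1.04 ± 0.32 against WT (adjusted p = 0.0441), 1.65 ± 0.32 in gun1-101 (adjusted p = 0.00211) and 2.54 ± 0.34 in nac103-11 (adjusted p = 0.000214), and the call against WT was lost without 5 of the 6 libraries left out in turn, all but rab8d-2 replicate 1 (adjusted p up to 0.184). It also fell in nac103-11 rab8d-2 against rab8d-2 (-1.79 ± 0.33, adjusted p = 0.0209), though not without rab8d-2 replicate 1 (-1.29, adjusted p = 0.0608) or replicate 3 (-1.87, adjusted p = 0.0589). CHLP fell in nac103-11 rab8d-2 against both nac103-11 (-3.48 ± 0.70, adjusted p = 0.00258) and rab8d-2 (-2.81 ± 0.68, adjusted p = 0.0446), the latter lost without 5 of the 6 libraries, all but rab8d-2 replicate 2 (adjusted p up to 0.164). SGR1, a magnesium dechelatase of chlorophyll breakdown, fell in gun1-101 rab8d-2 against gun1-101 (-1.69 ± 0.40, adjusted p = 0.00604). PAO, pheophorbide a oxygenase, rose in nac103-11 rab8d-2 against nac103-11 (0.89 ± 0.22, adjusted p = 0.00825) and in gun1-101 rab8d-2 against rab8d-2 (1.01 ± 0.22, adjusted p = 0.0200), the latter lost without rab8d-2 replicates 1 or 3 or gun1-101 rab8d-2 replicates 1 or 2 (adjusted p up to 0.102).

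**Figure D4:**
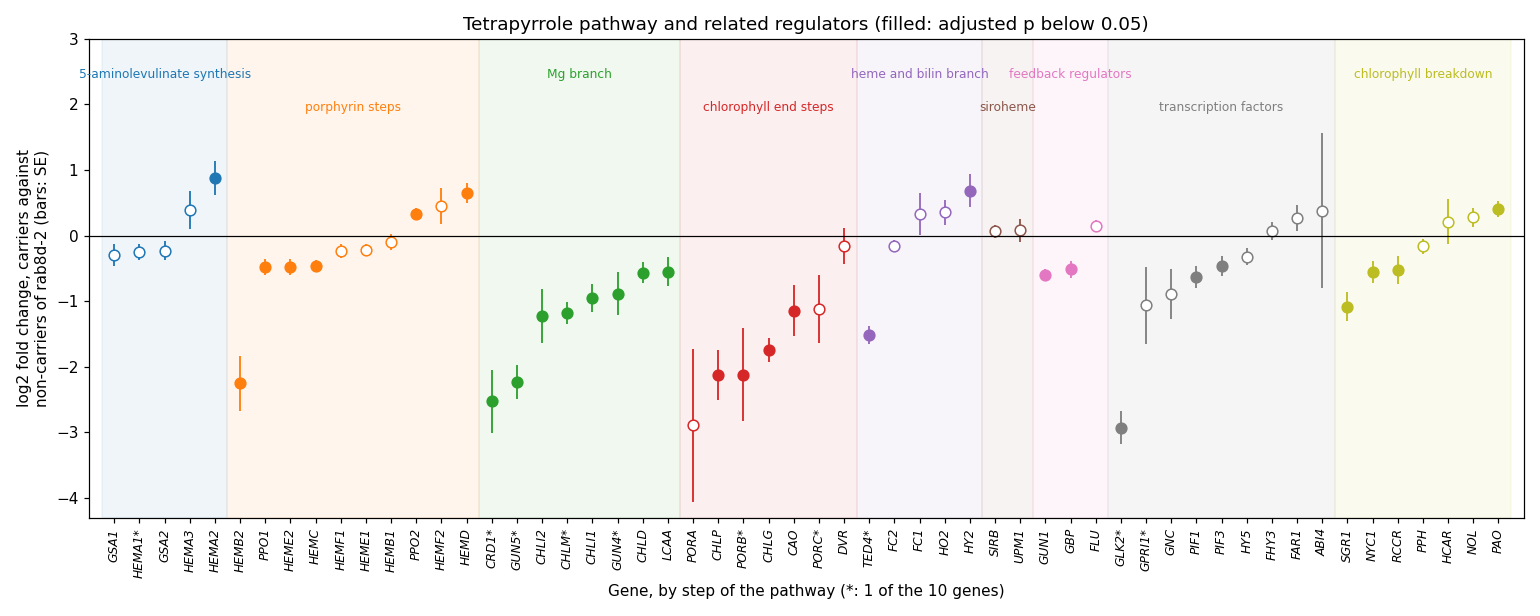
Log2 fold change with its SE, libraries with rab8d-2 against those without it over 3 backgrounds, for 56 pathway and regulatory genes grouped by step; filled points have an adjusted p below 0.05 and asterisks mark the 10 genes. All 8 magnesium branch genes are filled and below 0, while HEMA2 is the 1 filled gene of 5-aminolevulinate synthesis and lies above 0.

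Other RNA moved with these values. The summed TPM of 20 green tissue genes (light harvesting, photosystem and Rubisco genes) was 296 to 1529 in WT, 574 to 740 in gun1-101 and 213 to 695 in nac103-11, and 136 to 1256 in rab8d-2, 114 to 371 in gun1-101 rab8d-2 and 36.9 to 207 in nac103-11 rab8d-2; 12 of the 20 fell over backgrounds. Root hair markers (5 of 6), endodermis markers (7 of 8, while the other rose), root cap markers (2 of 3) and xylem markers (6 of 6) also fell, and all 3 stem cell niche markers rose. In the same comparison 24.5% of all genes were called lower and 27.1% higher. The part of these shifts in the values of the 10 genes was not tested, and in bulk tissue fewer cells of a type and less RNA per cell cannot be told apart.

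Across the 18 libraries the 10 genes formed no single pattern. The Pearson correlation of log2 CPM was 0.92 between GUN5 and CRD1, 0.91 between GUN5 and GLK2, 0.90 between TED4 and GLK2 and 0.87 between CRD1 and PORB. After each genotype's mean was removed, TED4 and GLK2 still correlated at 0.84 and CRD1 and PORB at 0.85, but PORB and GLK2 at 0.15. HEMA1 correlated with each of the others at 0.51 or below. These are descriptions over libraries that share genotypes, depth and tissue composition.

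Among all tested genes, those most like each of the 7 called genes over the 18 libraries were named by the highest Pearson correlation of log2 CPM. For GLK2 they were HEXO3 (0.960), PSY1R (0.955) and ALPHA DOX2 (0.950). For TED4 they were AT1G44770 (0.985), AT3G56310 (0.980) and AT4G27745 (0.978). For GUN5 they were SDR1 (0.973), AT5G08050 (0.966) and AT2G21960 (0.966). CRD1 was most like CHLP (AT1G74470, 0.984) and the photosystem II genes PSBX (0.979) and PSBY (0.979). PORB was most like AT1G49975 (0.928), MRL1 (0.923) and PSRP3/1 (0.922), and CHLM was most like CYP72A11 (0.952), AAE17 (0.948) and AT1G52870 (0.945). For GUN4 the values were lower: MLS (0.845), AT5G08650 (0.838) and PORC (0.828).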

How the data were processed

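RNA-seq of seedling root tips was deposited as 1 table of 25177 genes with 2 units. The deposited expected counts are RSEM estimates per gene (RSEM 1.3.1 on TAIR10, per the submitters' processing notes), and 19.6% of them were not whole (tolerance 1e-06), so they were rounded. The deposited TPM values, length-scaled by the authors, summed to 67.1 to 79.5% of a full TPM total per library, so the table covers part of the authors' gene set. The aligner and read filters are not given in the sources used here. The 12 deposited columns of genotype means were not used.

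Columns were matched to samples by name. Genes passing edgeR's filterByExpr (21004, with 4173 removed) were TMM-scaled (factors 0.706 to 1.17) and tested with edgeR 4.0.16 (robust quasi-likelihood fit, 1 term per genotype, all 18 libraries, R 4.3.3) for 10 contrasts, including both interactions and the average of rab8d-2 against its absence over 3 backgrounds. A call is a Benjamini-Hochberg adjusted p below 0.05 over all genes tested. SE is the log2 fold change divided by the square root of F. Alternatives used DESeq2 1.42.0, limma 3.58.1 on log2(TPM + 1), a replicate block and left-out libraries. The code was tested on simulated data. The totals of 22625991 to 23090977 counts limit precision for the lowest genes.

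The text names the 10 genes, the 3 mutated genes, up to 5 called genes per contrast of a pathway list with the smallest p, and the 3 genes most correlated with each of the 7 of the 10 that were called in any contrast. Same-numbered libraries deviated together from their genotype means in 1 of 15 genotype pairs, gun1-101 with gun1-101 rab8d-2 (r from 0.107 to 0.185), where the labels name no shared batch. The 10 genes and the lists were chosen with earlier results of these data known. PORC was matched by its locus. All 25177 IDs matched RefSeq (TAIR10.1), which supplied coordinates and upstream sequences. Figures were drawn with Python 3.11.15 and matplotlib 3.10.9.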

Additional observations from a re-analysis of the deposited data

How the results depend on the processing

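Of 54 single log2 fold changes called in at least 1 setting, 42 were called in the analysis reported and 26 in every setting run for them. Among these 54, 1 value changed sign: PORB in rab8d-2 against WT was 0.51 in the 12 libraries with clock scores below -4 (adjusted p = 0.801), against -1.96. Of 67 values called in no setting, 37 changed sign in at least 1. For rab8d-2 against WT the number of the 10 genes called was 3 (12.3% of all genes), 0 with only the 6 libraries fitted (0.377%), 1 in the clock subset (0.979%), and 2 to 6 without 1 library. For gun1-101 rab8d-2 against gun1-101 it was 4 (28.3% of all genes), 7 with only the 6 libraries fitted (53.9%), 6 without the pair of libraries least like their mates (44.9%) or without those with shoot regulator RNA (20.3%), and 4 without any 1 library. For nac103-11 rab8d-2 it was 5 to 6 against nac103-11 without 1 library. Against rab8d-2 it was 1 (2.54% of all genes), 3 with DESeq2 (9.98%), 0 with only the 6 libraries (0.00995%), 0 without the shoot regulator libraries (0.0609%), 0 in the clock subset (0.0808%) and 0 to 2 without 1 library. Over all backgrounds it was 5 to 9. Of all genes, the fits without 1 library called 4882 to 6463 higher and 4585 to 6212 lower over all backgrounds. They called 191 to 1789 higher and 256 to 1813 lower in rab8d-2 against WT. In the gun1-101 background they called 1466 to 1981 higher and 2227 to 2539 lower. In the nac103-11 background they called 1934 to 2963 higher and 2086 to 3916 lower. For nac103-11 rab8d-2 against rab8d-2 the numbers were 18 to 686 and 27 to 509. The nac103-11 interaction gave 1 with DESeq2 and 0 otherwise, and the other comparisons gave 0 throughout. The causes were not tested.

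Over all genes, DESeq2 called 1890 higher and 2260 lower in rab8d-2 against WT (1009 and 1576 with edgeR), 18 and 60 in gun1-101 against WT (0 and 4), 20 and 38 in nac103-11 against WT (1 and 1), 305 and 143 for the gun1-101 interaction (38 and 3) and 290 and 258 for the nac103-11 interaction (1 and 1). Against rab8d-2 it called 1045 and 973 in gun1-101 rab8d-2 (526 and 352) and 1185 and 911 in nac103-11 rab8d-2 (270 and 264). With only the 6 WT and rab8d-2 libraries edgeR called 47 and 29. With the pair of libraries least like their mates left out, it called 4420 and 3554 in rab8d-2 against WT and 2400 and 1546 in gun1-101 against WT.

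The labels share replicate numbers. Over 45 same-numbered pairs of libraries the deviations correlated at -0.56 to 0.46 (median 0.02, 15 above 0.1), and all 3 pairs were above 0.1 only for gun1-101 with gun1-101 rab8d-2, where the replicate block changed no call of the genes named. With the replicate block, the number of the 10 genes called was 2 in rab8d-2 against WT, where CHLM did not pass (-1.02, adjusted p = 0.0553), 4 and 6 in the gun1-101 and nac103-11 backgrounds, 1 in nac103-11 rab8d-2 against rab8d-2, and 6 over all backgrounds, where GUN4 did not pass (-0.82, adjusted p = 0.0565). Of all genes, that fit called 8.84%, 25.1%, 25.5%, 0.581% and 48.4% in these comparisons, in the same order. The comparisons that counted gun1-101 rab8d-2 replicates 1 and 2 as 1 library, left out shoot regulator libraries or kept the clock subset were chosen after seeing the data; the clock subset holds no gun1-101 library. Means of 41.2, 22.6 and 13.4 counts limit PORC, GUN4 and GPRI1.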
